A study of Mus musculus with 3 samples.

Results

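The loss of β-catenin was examined by comparing 2 RNA-seq libraries of mouse spinal cord (strain C57BL/6) at embryonic day 13.5. The library cKO came from embryos carrying Nestin-Cre and a floxed Ctnnb1 allele from which exons 2 to 6 are removed, which the labels call loss of function. The library WT came from wild type embryos. A further library, dE3, from Nestin-Cre embryos with floxed Ctnnb1 exon 3 (called gain of function), is given only as a reference point. Of 51826 genes in the deposited gene table, 17527 had at least 20 counts in cKO or WT and were compared. Nestin-Cre is used to recombine genes in neural progenitors and their descendants, and which cells of the tissue had lost the exons was not measured. The number of embryos behind a library is not given in the labels, nor whether the wild type embryos carried Cre. The library names carry an L3 tag for cKO and an L2 tag for WT and dE3, so whatever that tag marks cannot be told apart from the loss of β-catenin.

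β-catenin, the product of Ctnnb1, has a pair of roles. It links cadherins to α-catenin at cell junctions, and in the nucleus it is the co-activator through which canonical Wnt signals reach the TCF/LEF transcription factors. In the developing spinal cord, Wnt proteins from the roof plate act on dorsal progenitors, and β-catenin has been tied to their proliferation and patterning.

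Each genotype has 1 library, so no difference could be set against the spread between replicates, and p-values are not given. The libraries held 32167470 (WT), 33048837 (cKO) and 34790053 (dE3) estimated counts. Levels are in CPM, counts scaled to library size. Ratios of cKO to WT carry a 95% interval (exact, Clopper-Pearson) for counting error alone. Calls of higher or lower needed a ratio past 2-fold with an interval that did not hold 1. For a gene at 0 in a library the ratio was set against 3 counts in that library and is a lower bound. Markers of the labelled tissue were present, with neural progenitor, pan-neuronal and Hox genes summing to 2859, 18327 and 3971 CPM in WT and to 2518, 20328 and 3396 in cKO. In whole tissue, fewer cells of a type and less RNA per cell cannot be told apart.

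By this rule 583 genes were called higher in cKO than in WT (3.33%) and 576 lower (3.29%), and 16368 were neither. The median log2 ratio was 0.0026, and 90% of the genes lay between a log2 ratio of -0.81 and 0.83. Among 49 gene lists, skeletal muscle (16 of 21 genes, 76.2%) and cartilage (13 of 19, 68.4%) had the largest shares called higher. These shares depend in part on the filter. A gene under 20 counts in WT was measured only if it reached 20 in cKO, which favours calls of higher among such genes. Among 10786 genes with a mean of at least 10 CPM, 85 were called higher and 56 lower. Each call was also put through 3 checks. The gene had to pass 2-fold by the deposited TPM values and share under 20% of its 50-base words with all other genes together. It also had not to lose its call in the rest of the gene, meaning its counts without the transcript that differed most. No check was failed by 302 of the genes called higher and 315 of those called lower, and at 10 CPM or more by 37 and 7. The last check could be made for few of them. Among the 302 it was measured and held for 33, while 120 have 1 transcript and for 149 the rest was under 20 counts. Among the 315 these numbers were 10, 221 and 84.

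**Figure D1:**
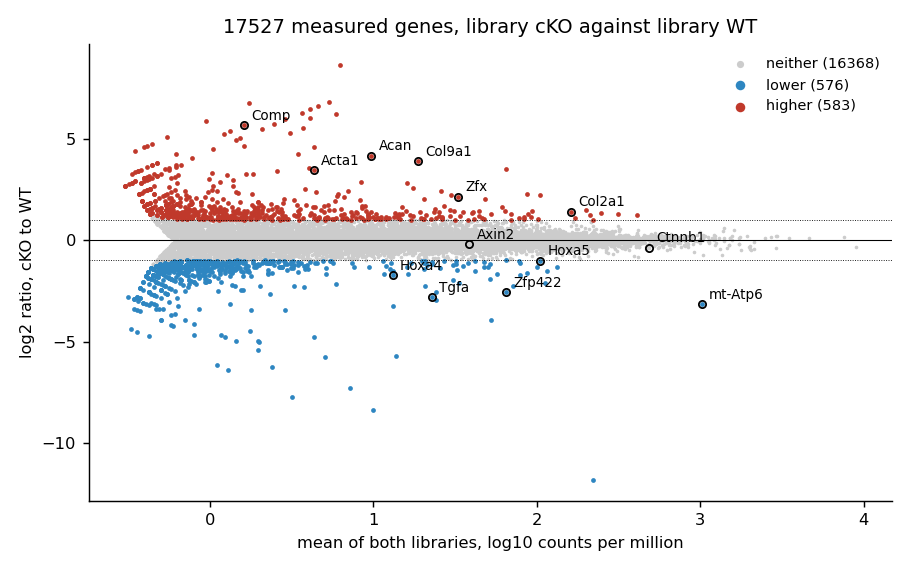
Log2 ratio of cKO to WT (vertical axis) against the mean level of both libraries (horizontal axis, log10 CPM) for the 17527 measured genes. Genes called higher (583) are red, genes called lower (576) blue, the others grey; dotted lines mark 2-fold, and most blue points lie at low levels.

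The targeted gene was present in both libraries. Ctnnb1 (ENSMUSG00000006932) lies on the plus strand of chromosome 9, from 120929216 to 120960507 in GRCm38. Its level was 544 CPM in WT, 422 in cKO and 461 in dE3. Its log2 ratio of cKO to WT was -0.37, a 1.29-fold lower level (1.26 to 1.32) that did not pass 2-fold. By TPM the log2 ratio was -0.52. The gene total is a partial check of the label only. Exons 2 to 6 lie at 120950173 to 120951787 and hold 984 of the 3623 bases of the full-length transcript (27.2%), and any cell without recombination keeps them. They hold 936 of its 2343 coding bases (39.9%), a multiple of 3, and include the start codon. The coding sequence opens as follows, with the start codon in capitals. Its first 13 bases lie in exon 2 and the others in exon 3, so the whole stretch lies inside the deleted exons.
Ctnnb1: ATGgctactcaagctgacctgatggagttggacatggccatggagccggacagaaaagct

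The estimates for single Ctnnb1 transcripts went in opposite directions. Ctnnb1-209, a transcript with a retained intron that also holds exons 2 to 6, had 7116 counts in WT, 1922 in cKO and 11477 in dE3, a log2 ratio of cKO to WT of -1.94. Ctnnb1-208, annotated as a target of nonsense-mediated decay, had 3971, 2496 and 786 counts. Ctnnb1-201, the full-length coding transcript, had 5892 counts in WT, 9189 in cKO and 2807 in dE3. Its share of the gene's counts was 33.9% in WT and 65.9% in cKO. Exons 2 to 6 are part of all 3 transcripts, so none of them stands for the deleted form. Taking out Ctnnb1-209 leaves a log2 ratio of 0.18 for the rest of the gene. Retained intron transcripts as a class lay lower in cKO. Of 8388 measured, 669 were called higher (7.98%, against 11.6% of all measured transcripts) and 1425 lower (16.99%, against 12.9%). Their median log2 ratio was -0.31, against 0.04 for 27506 protein-coding transcripts.

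**Figure D2:**
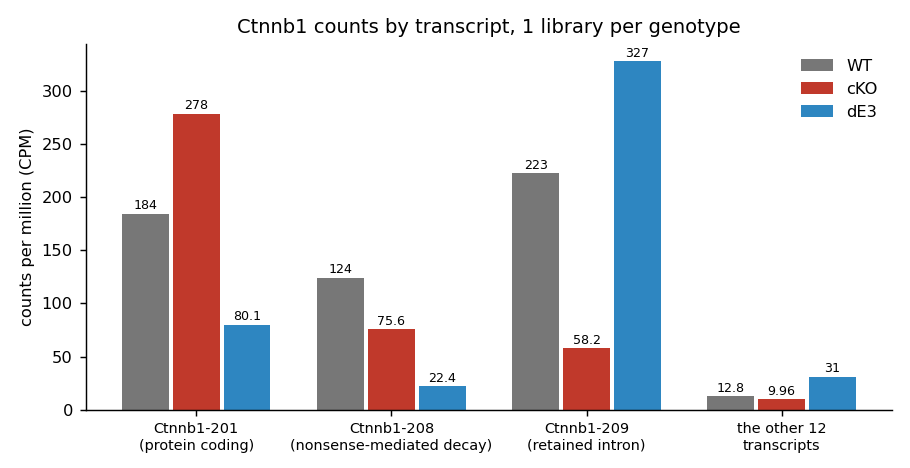
Level (CPM) assigned to the 3 abundant Ctnnb1 transcripts and to the other 12 together, in WT (grey), cKO (red) and dE3 (blue), 1 library each. In cKO the full-length transcript Ctnnb1-201 stands at 278 CPM against 184 in WT, while the retained intron transcript Ctnnb1-209 stands at 58.2 against 223.

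The catenin relatives differed little. Jup encodes plakoglobin, which can take the place of β-catenin at junctions. It stood at 57.8 CPM in WT and 78.9 in cKO, 1.36-fold higher (1.29 to 1.45). Ctnna1, an α-catenin, stood at 73.6 and 96.4 CPM. Of 13 measured catenin and plakophilin genes, 1 was called higher, the desmosomal gene Pkp3, on 7 counts in WT and 20 in cKO, and 0 lower, with a median log2 ratio of -0.05, or 0.27 over the rest of the 10 genes that had one measured. None of 31 cadherin and junction genes was called (median 0.04). Cdh2, the N-cadherin of neural progenitors, stood at 396 and 387 CPM, and Cdh5, the cadherin of endothelial cells, at 41.8 and 74.3. The 16 genes of the destruction complex, which degrades β-catenin, had no call and a median of 0.01. The same held for 20 TCF/LEF and cofactor genes (median -0.04), in which Tcf7l2, a main Wnt effector, stood at 6.07 and 6.21 CPM.

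Wnt feedback and target genes, used as a readout of canonical signalling, were not lower as a list in this whole tissue. Lef1, Apcdd1 and Tnfrsf19 are also in the list of vessel barrier genes, and which cells the RNA came from was not measured. Of 25 measured Wnt target genes, 1 was called higher (4%, against 3.33% of all genes) and 0 lower. Of these 25, 17 lay above 0, and the median log2 ratio was 0.16. Over the 16 genes whose rest could be measured, the median of the rest was -0.16. Axin2, a scaffold of the destruction complex, stood at 41.3 CPM in WT and 35.8 in cKO, and the receptor Fzd10 at 42.8 and 34.6. Nkd1, a feedback inhibitor, was level at 48.9 and 48.6 CPM. Lef1 stood at 4.94 and 7.12 CPM and Sp5, a zinc finger factor, at 1.56 and 2.91. In dE3 these 5 genes stood at 276, 327, 804, 73.1 and 59.8 CPM, far above both other libraries. The 1 gene called, Notum, encodes a Wnt-inactivating enzyme and had 58 and 124 counts. It shared 28.8% of its words with other genes, most often with its antisense gene Notumos, and the rest of the gene had a log2 ratio of -0.17.

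Promoter windows were searched for the core of the TCF/LEF motif, since β-catenin reaches the genome through these factors. The letters searched were CTTTGAA together with the variant CTTTGAT, and also the letters CTTTGTA together with the variant CTTTGTT. Both strands were searched from 250 bases before to 50 after each RefSeq start (GRCm38.p6). Of 11887 measured genes with a window matched by symbol, 13.8% held a match. The share was 14.1% of 340 genes called higher and 16.3% of 209 called lower. Among genes that failed no check it was 12% of 192 and 16.7% of 102. Of 18 Wnt target genes with a window, 5 held a match. The following stretches show such matches, in capitals, upstream of 3 target genes that were not called here. They lie at chr3:131156132-131156168 (plus strand), chr2:70474804-70474840 (plus strand) and chr14:61038168-61038204 (minus strand).
Lef1: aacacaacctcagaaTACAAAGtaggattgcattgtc
Sp5: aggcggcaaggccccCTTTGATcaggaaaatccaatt
Tnfrsf19: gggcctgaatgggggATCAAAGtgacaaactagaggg
The receptor gene Tnfrsf19 stood at 33 CPM in WT and 45 in cKO, a log2 ratio of 0.45. A match is a run of letters only, and binding was not measured.

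Among Wnt ligands, 3 of 15 were called higher (20%, against 3.33% of all genes) and 1 lower (6.67%, against 3.29%). The median was 0.08. Wnt6 had 3.0 CPM in WT and 8.39 in cKO, 2.79-fold higher (2.21 to 3.56), and the dE3 library had 6.96. Wnt16 and Wnt2 were called higher on 31 and 22 counts in cKO, and Wnt8b was called lower on 30 counts in WT and 12 in cKO. The abundant ligands of the cord were below the threshold, with Wnt7b at 78.7 and 64.2 CPM and Wnt5a at 28.4 and 22.7. Ror2, a receptor for Wnt5a, was the 1 of 21 receptor genes called (4.76%), at 6.23 and 13.7 CPM. The rest of Ror2 stood at a log2 ratio of 0.50. Of 16 secreted modulators 3 were called higher (18.8%). They were Sfrp5, a Wnt-binding antagonist (6.01 and 14.6 CPM), Serpinf1 (7.7 and 16 CPM) and Notum.

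Genes of cartilage showed the clearest excess in cKO. Of 19 measured cartilage and vertebra genes, 13 were called higher and 0 lower, with a median log2 ratio of 2.28 against 0.0026 for all genes. Members under 20 counts in WT were measured only through their counts in cKO, which favours higher ratios in this list. Acan, the core protein of aggrecan, had 1.03 CPM in WT and 18.4 in cKO, 17.8-fold higher (12.5 to 26.1). Col9a1, a cartilage collagen, had 2.38 and 35.2 CPM, 14.8-fold higher (11.7 to 18.9). Matn1, a cartilage matrix protein, had 0.344 and 8.33 CPM. Comp, another one, had 2 counts in WT and 105 in cKO, a 50.8-fold ratio with a wide interval (13.7 to 425). Col2a1, the main cartilage collagen, stood at 88.7 and 234 CPM, 2.64-fold higher (2.53 to 2.76), and the rest of the gene at a log2 ratio of 0.63. Col11a2 was called higher at 16.8 and 45 CPM, but the rest of the gene was lower, at a log2 ratio of -1.33. Sox9, the regulator shared by chondrocytes and neural progenitors, stood at 48.3 and 52.4 CPM. In all 7 of these genes the dE3 library was higher still (Acan 54.7 CPM, Col9a1 114, Col2a1 432). The median of the list was 1.29 by TPM with a pseudocount of 1, and 1.07 over the rest of the 9 genes that had one measured, against 1.42 for the whole of the same genes.

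Skeletal muscle genes followed the same order of libraries at lower levels. Of 21 measured, 16 were called higher and 0 lower, and none reached 10 CPM in WT. The median was 1.62, and 0.71 over the rest of the 6 genes that had one measured. Of 25 listed genes, those under 20 counts in both libraries were left out. Members near 0 in WT therefore count only where cKO is higher, which raises the share and the median. Acta1, the skeletal actin, had 0.72 CPM in WT, 7.87 in cKO and 22 in dE3, a 10.9-fold ratio of cKO to WT (7.13 to 17.6). Myh3, the embryonic myosin heavy chain, had 2.5, 10.8 and 44.2 CPM, and Actc1, the cardiac actin also made by embryonic muscle, 2.19, 9.75 and 42.9. The troponin gene Tnni1 had 0 counts in WT and 37 in cKO, at least 11.9-fold higher when WT is set to 3 counts, with a lower counting bound of 9.23. The muscle regulators Myog (21 and 79 counts) and Myod1 (11 and 30) were called higher as well. Summed over the list, muscle genes made up 31.6 CPM in WT, 80.3 in cKO and 753 in dE3. The sums for cartilage were 312, 657 and 1400 CPM. Many of these genes mark tissue around the cord, but the sums also hold genes made within it. Sox9 is also listed with neural progenitors and Pax7 with dorsal progenitors. How much tissue from around the cord each library holds was not measured, and its part in the result was not tested.

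Connective tissue and meningeal genes were higher at far greater levels. Of 25 measured mesenchyme and meninges genes, 9 were called higher (36%, against 3.33% of all genes) and 0 lower. In this list 23 lay above 0, and the median log2 ratio was 0.80. Col1a1 and Col1a2, the chains of type I collagen, stood at 139 and 183 CPM in WT, at 353 and 443 in cKO, and at 261 and 339 in dE3. The ratios of cKO to WT were 2.54 (2.46 to 2.63) and 2.42 (2.35 to 2.49). Col3a1 stood at 247 CPM in WT and 576 in cKO, but the rest of the gene stood at a log2 ratio of 0.50. The forkhead factor Foxc2, which marks mesenchyme and meninges, had 5.2 and 11.3 CPM, and Col6a1 had 22.8 and 57.5 CPM, with 67.2 in dE3. Summed over the list the levels were 1673 CPM in WT, 2745 in cKO and 3056 in dE3.

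The collagen family as a whole was followed after these values had been seen. Of 42 measured collagen genes, 15 were called higher and 1 lower (Col6a4, at 1.94 and 0.878 CPM), 36 lay above 0, and the median was 0.77. Their summed level was 1804 CPM in WT, 3589 in cKO and 4080 in dE3. The vessel basement membrane chains Col4a1 and Col4a2 stood at 240.4 and 149 CPM in WT and at 387 and 279.6 in cKO, below 2-fold. Col18a1, of basement membranes, was called higher at 54.6 and 112 CPM, and Nid2, a nidogen that links laminin to collagen IV, at 46.5 and 93.3. Lama2, a laminin chain, stood at 16.7 and 35.9 CPM. Aebp1, a matrix-associated protein, stood at 12.3 and 35.2 CPM, 2.87-fold higher (2.55 to 3.22).

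Cells of vessels and blood showed smaller shifts. Of 19 endothelial genes none was called, yet 18 lay above 0, with a median of 0.46. Cdh5 was 1.78-fold higher (1.66 to 1.90) and Tie1, an endothelial receptor kinase, stood at 26.1 and 43.3 CPM. Pericyte and smooth muscle genes had 4 of 11 called higher (36.4%, against 3.33% of all genes), with a median of 0.44. Among them were Acta2, the smooth muscle actin, at 4.19 and 13.4 CPM, and Tagln, at 2.35 and 5.94 CPM. Of the words of Tagln, 56.2% also occur in other genes, most often in Gm48529. The pericyte genes Rgs5 (73.4 and 72.0 CPM) and Abcc9 (30.2 and 31.8) were near level. Microglia and macrophage genes had 2 of 19 called higher (10.5%), with a median of 0.47. The 2 called were Pf4, with 39 and 127 counts, and the lysozyme gene Lyz2, with 104 and 238. Only 3 of the 19 had a rest of the gene to measure, with a median of -1.65. Interferon response genes had 2 of 15 called higher (13.3%), Bst2 (34 and 120 counts) and Ifitm1 (44 and 133). Erythroid genes had 1 of 11 called higher (9.09%) and a median of 0.25, and Hbb-bs, a globin gene, stood at 278 and 286 CPM.

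**Figure D3:**
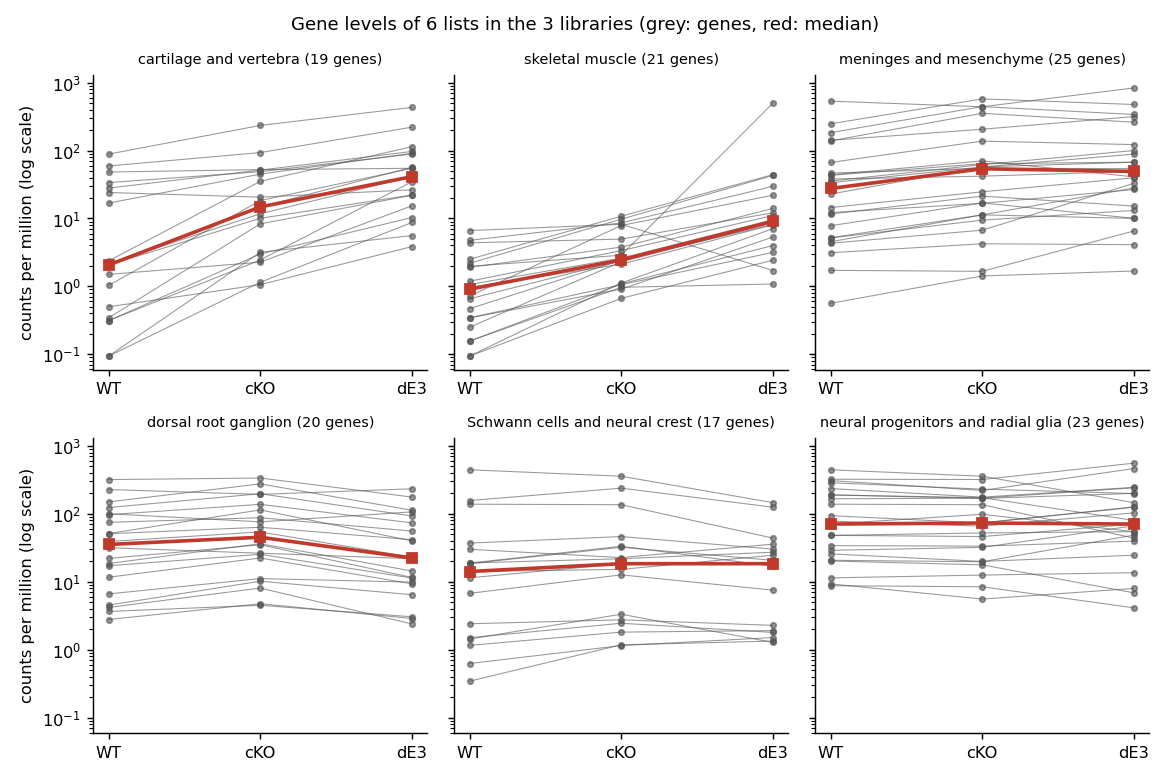
Levels of the measured genes of 6 lists (grey lines, CPM on a log axis, with genes at 0 drawn at the level of 3 counts) and the list median (red) in WT, cKO and dE3. Cartilage and muscle medians climb from WT to cKO to dE3, mesenchyme genes are similar in cKO and dE3, and dorsal root ganglion genes are highest in cKO.

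Of 20 dorsal root ganglion genes, 2 were called higher in cKO (10%, against 3.33% of all genes) and 0 lower. In this list 17 lay above 0, and the median was 0.61. The median ratio of dE3 to WT, which shares the WT library, was -0.38 for this list. Runx1, a regulator of nociceptor identity and one of the genes called, had 4.54 CPM in WT, 10.2 in cKO and 6.45 in dE3, and its log2 ratio of cKO to WT was 1.17 by counts but 0.54 by TPM. The sodium channel gene Scn10a (18.6 and 36.3 CPM) and the capsaicin receptor gene Trpv1 (4.19 and 8.09) were just under 2-fold. Pirt, a modulator of Trpv1 that was in no list, stood at 29.4, 62.3 and 26.2 CPM. Not every ganglion gene was higher, since Pou4f1, a sensory neuron factor also made in the dorsal cord, stood at 100.4 and 76.3 CPM. Schwann cell and neural crest genes had 2 of 17 called higher (11.8%), S100b (46 and 110 counts) and Egr2 (11 and 39). The median of that list was 0.65, and 0.16 for dE3 to WT. Sox10, a neural crest and glial factor, stood at 18.8 and 33.4 CPM. The share of ganglion and nerve root tissue in each library was not measured, and its part in these values was not tested.

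Motor neurons, whose axons leave the cord, had 13 of 15 genes above 0 and none called (median 0.32). The list is not specific to them. Prph is among the members also in the dorsal root ganglion list, and the mesenchyme list shares a member too. The part of such tissue in these values was not tested. Prph, a filament protein of motor and sensory neurons, stood at 150.2 CPM in WT and 276 in cKO, 1.84-fold higher (1.78 to 1.91), and Isl2 stood at 20.1 and 31.2. Foxp1, which marks limb-innervating motor columns, was lower at 84.7 and 43.8 CPM, though the rest of the gene was higher (log2 ratio 0.42). Pan-neuronal genes had no call among 24 and a median of 0.10. The neurofilament gene Nefm stood at 1116 CPM in WT and 1684 in cKO and the tubulin gene Tubb3 at 1797 and 2069. Dorsal horn neuron genes (29 measured, median -0.14) and ventral interneuron genes (17, median 0.15, or -0.07 over the rest of 12) had no call.

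Of 26 measured proneural genes, 0 were called higher and 1 lower in cKO, a share (3.85%) near that of all genes (3.29%). Though 22 lay below 0, with a median of -0.23, the median over the rest of the 12 genes that had one measured was 0.15. Atoh1, which specifies the most dorsal interneurons, had 38 counts in WT and 10 in cKO, 3.93-fold lower (1.92 to 8.84). Neurog2, a proneural factor, stood at 23.2 and 16.4 CPM, Neurod4 at 6.85 and 3.94, and Insm1, a factor of newborn neurons, at 34.7 and 25.1. Dcx, a microtubule protein of young neurons, stood at 2205 and 1820.3 CPM. All these ratios other than that of Atoh1 were under 2-fold.

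Roof plate and dorsal progenitor genes had 2 of 24 called lower (8.33%, against 3.29% of all genes), 0 higher and a median of -0.25. Msx3, a dorsal homeobox gene, stood at 23.4 CPM in WT, 10.7 in cKO and 58.3 in dE3, 2.19-fold lower in cKO than in WT (1.92 to 2.49). The rest of the gene stood at a log2 ratio of -0.57. The second was Atoh1. Msx1 (14.2, 10.2 and 47.1 CPM) and Pax3 (19.1, 15.7 and 60.3 CPM) had the same order of libraries without passing 2-fold. Gdf10, a BMP family ligand of dorsal progenitors, stood at 29.1 and 18.5 CPM, whereas the ligand genes Bmp7 (19.5 and 30.4) and Bmp6 (7.64 and 12.5) lay on the other side. Among 24 BMP pathway genes 1 was called (4.17%), Bmp4, higher on 53 and 117 counts.

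Progenitor and cell cycle genes differed little by list median. The 23 neural progenitor and radial glia genes had no call and a median of -0.07. Yet 17 of them lay below 0, and their sum was 2859 CPM in WT and 2518 in cKO. The filament gene Nes stood at 236 and 176 CPM and Fabp7, a radial glial lipid-binding protein, at 446 and 358. Vim, a filament of radial glia that mesenchyme also makes, stood at 324 and 321 CPM. Of 25 S phase genes (median 0.15) 1 was called higher (4%, against 3.33% of all genes), the flap endonuclease gene Fen1. Of its words, 81.2% also occur in other genes, most often in Gm10143. None of 25 G2 and M phase genes was called (median 0.10), and Mki67, the proliferation marker, stood at 70.7 and 73.9 CPM. The 15 Hedgehog, 20 FGF and 20 Notch genes had no call, with medians of 0.16, 0.16 and 0.10. Over the genes with a measured rest, the medians of the rest were -0.08, -0.03 and -0.17 (10, 13 and 14 genes), and -0.03 for 15 G2 and M phase genes.

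Glial lineages differed in few genes. The shares called, 5% lower for oligodendrocyte and 4% higher for astrocyte genes, were near those of all genes (3.29% and 3.33%). In the oligodendrocyte list 1 of 20 genes was called lower (median 0.05, or -0.13 over the rest of 12 genes), Mog, a myelin glycoprotein, at 4.82 CPM in WT, 2.06 in cKO and 4.28 in dE3. Olig1 and Olig2, regulators of the lineage, stood at 33.3 and 16.6 CPM in WT and 36.3 and 13.7 in cKO. In the astrocyte list 1 of 25 was called higher (median 0.10, or -0.30 over the rest of 17 genes), Ntsr2, on 10 and 23 counts. The gap junction gene Gja1 (45.8 and 84.2 CPM) and the lipoprotein gene Apoe (39.9 and 73.6), both also made by meningeal or macrophage cells, were just under 2-fold.

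**Figure D4:**
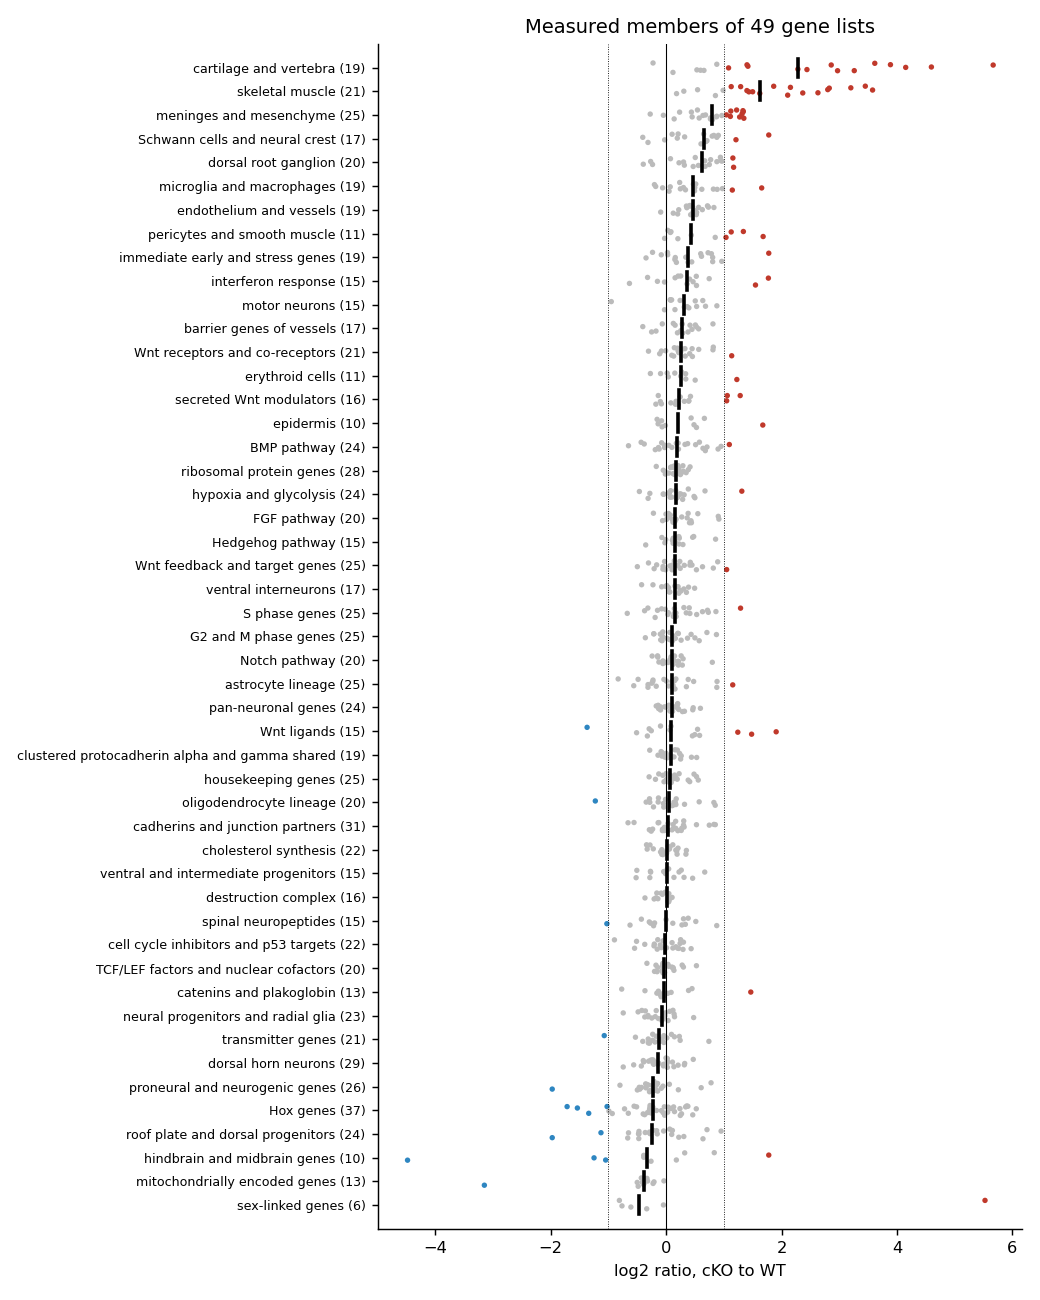
Log2 ratio of cKO to WT for the measured members (points) of 49 gene lists, with the number measured in brackets and the list median as a black bar; red members were called higher and blue ones lower. Cartilage (2.28), muscle (1.62) and mesenchyme (0.80) have the highest medians. Hox genes have the most members called lower (4 of 37, 10.8%), a smaller share than hindbrain and midbrain genes (3 of 10, 30%).

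Hox genes, which set position along the head to tail axis, differed by their place in the clusters. Of 37 measured, 4 were called lower (10.8%, against 3.29% of all genes) and 0 higher, with a median of -0.23. All 7 genes of paralog groups 4 and 5 were lower in cKO, with log2 ratios from -1.72 to -0.55. Hoxa4 had 20.1 CPM in WT, 6.12 in cKO and 11.7 in dE3, 3.28-fold lower in cKO than in WT (2.80 to 3.87). Hoxa5 had 140.1, 68.9 and 126 CPM, 2.03-fold lower (1.93 to 2.14). Hoxc5 (53.5 and 27 CPM) and Hoxb5 (136 and 82.4) were just under the threshold or below it, and Hoxd4 (67.7 and 26.7 CPM) was called lower, with the rest of the gene at a log2 ratio of -0.24. The fourth call was Hoxb1, on 59 and 21 counts. Groups 1 to 3 had a median of -0.30 over 8 genes and groups 6 to 8 of -0.27 over 8 genes. Of the 14 genes in groups 9 to 13, 12 lay above 0, with a median of 0.24 and none past 2-fold, among them Hoxc10 (124 and 159 CPM) and Hoxd9 (58.8 and 81.0). The summed level of groups 4 and 5 was 555 CPM in WT, 303 in cKO and 474 in dE3, and that of groups 9 to 13 was 1529, 1544 and 1518. By TPM the medians were -1.01 for groups 4 and 5 and 0.24 for groups 9 to 13. Grouping by these paralog numbers was chosen after the values had been seen.

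**Figure D5:**
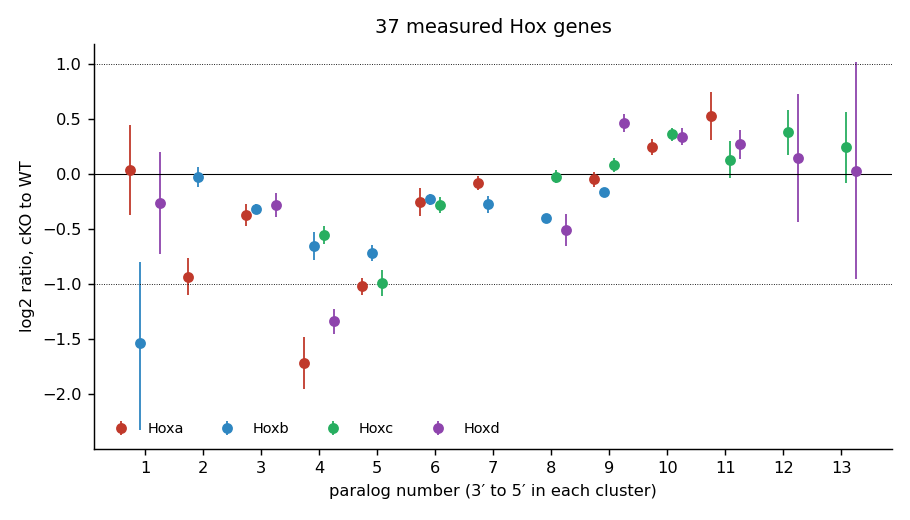
Log2 ratio of cKO to WT for 37 measured Hox genes by paralog number, coloured by cluster, with bars for the 95% counting interval and dotted lines at 2-fold. All 7 genes of groups 4 and 5 lie below 0, and 12 of 14 genes of groups 9 to 13 lie above it.

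Hindbrain genes were taken as marks of the brain stem, at the head end of the cord, but not all are specific to it. Gbx2 and Barhl1 are also in the dorsal horn list, and Egr2 is in the Schwann cell list. Of 10 measured hindbrain and midbrain genes, 3 were called lower (30%, against 3.29% of all genes) and 1 higher (Egr2). The median was -0.32 by counts, -0.16 by TPM and 0.26 over the rest of the 4 genes that had one measured. Those lower included the serotonin enzyme gene Tph2, with 23 counts in WT and 10 in cKO, and Cnpy1, with 56 and 28. Gbx2 and Pax5 stood at 40.2 and 18.9 CPM in WT and 30.8 and 14.4 in cKO. The rostral and caudal limits of each dissection are not given, and their part in the Hox and hindbrain values was not tested.

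Outside the lists, the abundant genes with the widest differences often rested on 1 transcript or on shared sequence. Those named next failed no check, though for Tgfa, Utp23, Cx3cl1, Vgll2, Clic6, Scin and Klhdc7a the rest of the gene could not be measured. Tgfa, a ligand of the EGF receptor, stood at 39.9 CPM in WT, 5.69 in cKO and 21.3 in dE3, 7.0-fold lower in cKO than in WT (6.0 to 8.21). The zinc finger gene Zfp422 stood at 111.3, 18.7 and 129.5 CPM, 5.96-fold lower (5.47 to 6.50). Of its words, 19.2% also occur in other genes, most often in Zfp955b, just under the limit of 20%. Zfx, an X-linked zinc finger gene, stood at 12.1, 53.6 and 14.7 CPM, 4.42-fold higher (3.95 to 4.94). It shared 16.8% of its words, most often with Zfa-ps. For Zfp422 and Zfx the dE3 library stood near WT, with log2 ratios of dE3 to WT of 0.22 and 0.27. For Tgfa it lay between WT and cKO, at -0.90. Bcl2l2, an anti-apoptotic gene (42.7, 18.4 and 43.5 CPM), Zfand2a (44.6, 19.7 and 32.9) and Utp23 (13.5, 5.36 and 13.5) were called lower. Usp46, a deubiquitinase (24.1, 64.2 and 22.7 CPM), Dcaf10 (19.6, 51.1 and 24.3) and the chemokine Cx3cl1 (13.1, 33.7 and 5.65) were called higher. At low counts Vgll2, Clic6 and Scin had 0 counts in WT and 41, 26 and 26 in cKO, and Klhdc7a had 23 and 0.

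Other clear calls shared sequence with a neighbour or copy, so their counts could be split differently between libraries. Trpc2 had 0 counts in WT and 163 in cKO while Xntrpc had 315 and 6. Xntrpc shares 91.5% of its words with other genes, most often with Trpc2. Mir686 had 1 and 413 counts, a ratio with a very wide interval (71.3 to 15822), and lies within sequence of Psmb5, which stood at 66.0 and 63.3 CPM. Others with at least 20% of shared words were Fam205a2, Higd1c, Tsix, Rnf26, Ube2v1 and Fam89b among genes higher. The symbols Rnf26 and Adat3 each belong to a pair of annotated genes, and the abundant one of each is meant. Among genes lower they were Zfhx2os, Cldn34c2, Fam205a1, Ptger1, Cntf, SETD1A, Adat3, Cd59b, Zmym1 and Glcci1. Of all genes called higher 24.7% shared that much, of those called lower 24.1%, and of all measured genes 14.4%. A further set of calls was not held by the rest of the gene. Arl5b went from 11.5-fold higher (10.3 to 12.9) to a log2 ratio of 0.52, and Sesn3, a stress-induced sestrin, from 4.68-fold (4.4 to 4.99) to 0.52. The same was seen for Mfap3, Fbln2 and Lrrc4b among genes higher and for Dnal1, Ppp1r26, Rnf24, Zfp451, Chmp3 and B3galt1 among genes lower.

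Differences between transcripts were far more common than between gene totals. Of 44555 measured transcripts, 5184 were called higher (11.6%) and 5752 lower (12.9%). There were 1922 genes with transcripts called in both directions, and for 1864 of them the gene total was neither. Myo18a, a myosin gene, is an example, with a gene log2 ratio of 0.21. Its transcript Myo18a-203 had 0 counts in WT and dE3 and 3231 in cKO, while Myo18a-202 had 798 counts in WT and 0 in cKO. Adarb1, an RNA-editing enzyme, had a gene log2 ratio of 0.14, with 2 counts in WT and 1295 in cKO for the coding transcript Adarb1-201. Its decay transcript Adarb1-205 had 385 and 0 counts. Pxn, the focal adhesion gene paxillin, had a gene log2 ratio of 0.15, with Pxn-210 at 743 and 0 counts and Pxn-201 at 53 and 1358. In Rab40c, Rab40c-205 had 1173 and 0 counts and Rab40c-201 had 1 and 1116, for a gene ratio of -0.04. The cytolinker gene Plec, the calcium channel gene Ryr3, Cul7 and Fnbp1 had such pairs too. The deposited counts are estimates divided among overlapping transcripts, and reads on their distinguishing junctions were not analysed here.

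The type of gene differed between the calls. Of 14627 protein-coding genes, 3.09% were called higher and 1.57% lower, with a median of 0.02. Of 529 lincRNA genes, 3.97% were called higher and 11.5% lower (median -0.24), and of 596 antisense genes 4.53% and 11.6% (median -0.26). Of 623 genes of the type TEC, models that await experimental evidence, 3.85% were called higher and 17.2% lower, with a median of -0.40. These types also differ in level. The median level was 1.79 CPM for lincRNA, 1.31 for antisense and 1.11 for TEC genes, against 27.8 for protein-coding genes. Of the 576 genes called lower, 345 had a mean under 1 CPM. Type and level were not separated here. Retained intron transcripts made up 40935 CPM in WT and 34225 in cKO. Mitochondrially encoded genes, 2.97% of WT counts and 2.24% of cKO counts, were all 13 below 0 with a median of -0.38. The 1 called lower, mt-Atp6, stood at 1832 and 206 CPM and shared 97.6% of its words with other genes, most often with Gm10925. Ribosomal protein genes (28 measured, no call) had a median of 0.18 and housekeeping genes (25, no call) of 0.07, or -0.09 over the rest of 19. Both libraries held Xist (946 CPM in WT and 917 in cKO) and RNA of 4 Y-linked genes, whose log2 ratios ran from -0.81 (Uty) to -0.34 (Ddx3y). The part of RNA quality and sex ratio in the results was not tested.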

How the data were processed

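Libraries were grouped by the genotype in the labels, 1 library each. The authors deposited, per gene and transcript, estimated counts in whole numbers, TPM and FPKM. CASAVA, Bowtie2 2.3.2 and GRCm38.p6 are named in the submitters' processing notes, whereas quantifier, annotation and strand setting were not given in the sources used here. Each gene's count equalled the sum of its transcripts. Counts were scaled by edgeR 4.0.16 TMM factors over 3 libraries (R 4.3.3), at gene level for transcripts too. Genes or transcripts under 20 counts in both libraries were left out. Ratios and intervals were computed with scipy 1.17.1. The code was tested on gene counts simulated with counting error alone, which leaves out error in dividing counts among overlapping transcripts or genes. TPM ratios used a pseudocount of 0.1. Words of 50 bases came from GENCODE vM21 transcripts, sampled at 1 in 16, and gene types from its annotation.

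Of 951 symbols in 49 lists, 943 were in the tables. Named genes were the 15 clearest in each direction by the interval bound nearest 1, 10 in each direction with a mean of at least 20 CPM, list members called or among the 6 most abundant, 8 genes with opposite transcripts, and Ctnnb1. Unnamed, clone-named, ribosomal and mitochondrial genes were left out of the first 2 sets. Other genes named were chosen after their values were seen. The genes compared and the lists were chosen with earlier results of these data known. Alternatives covered scaling (DESeq2 1.42.0 size factors among them), filters, folds, TPM pseudocounts and leaving out transcripts. The precision that depth gives is the counting interval. A few genes called or abundant in these lists are not reported here by name.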

Additional observations from a re-analysis of the deposited data

How the results depend on the processing

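Other scalings (TMM over both libraries alone, DESeq2 size factors, total counts, total counts without mitochondrial genes) left the gene counts within 1.5 times and turned no call. They turned 1 list median, that of neuropeptides, from -0.00022 to 0.0083 with total counts. Genes higher and lower numbered 924 and 1124 with no filter beyond 1 count, 217 and 126 with at least 100 counts, 1253 and 1165 at 1.5-fold, 225 and 223 at 3-fold. They numbered 243 and 154 by TPM plus 1, and 881 and 1130 without the most different transcript of each gene. Calls that failed none of 3 checks, chosen after seeing the data, numbered 302 and 315. Transcripts higher and lower numbered 2344 and 2321 with at least 100 counts and 3305 and 3315 at 3-fold, and 8700 were lower at 1.5-fold. The log2 ratio of Ctnnb1 was -0.52 with either TPM pseudocount and 0.18 over the rest of the gene. The cartilage median was 1.29 by TPM plus 1 and 1.07 without the most different transcripts, and the muscle median 0.71 by the latter, over fewer genes. That alternative, which by construction takes out the largest difference, changed the sign of 16 of the 40 list medians that had at least 5 genes to measure. Both values were past 0.1 for 4 of them, Wnt targets (-0.16), proneural (0.15), Notch (-0.17) and astrocyte genes (-0.30). It also turned Notum (-0.17), Fbln2 (-0.11), Mfap3 (-0.083), Rnf26 (-3.36), Col11a2 (-1.33), B3galt1 (0.19), Glcci1 (0.039), Ppp1r26 (0.81), Zfp451 (0.22) and Zmym1 (0.17). Leaving out a library was not possible with 1 per genotype. No paired analysis was possible because each genotype has 1 library and the labels carry no replicate numbers.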

Other observations

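Gene groups that the comparison above does not describe had at most 1 gene called each. Transmitter genes had 1 of 21 called lower (median log2 ratio -0.12), the glutamate transporter gene Slc17a8 (59 and 29 counts), while Slc17a6, the transporter of most excitatory spinal neurons, stood at 201 and 171 CPM. Of 15 neuropeptide genes 1 was called lower, Npff (69 and 35 counts), with 32.1% of its words shared with other genes, most often with Gm28047. The peptide genes Sst (66.6 and 72.1 CPM) and Npy (93.8 and 81.7) were near level. Ventral and intermediate progenitor genes (15, median 0.02, or -0.26 over the rest of 7 genes) and inhibitors of the cell cycle with p53 targets (22, median -0.02) had no call, and Cdkn1c, a cell cycle inhibitor, stood at 169 and 194 CPM. Cholesterol synthesis genes (22, no call) had a median of 0.02.

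Barrier genes of vessels, some of them known Wnt targets in endothelium, had no call among 17 and a median of 0.28. The tight junction gene Cldn5 stood at 39.1 and 52.1 CPM and the glucose transporter gene Slc2a1 at 74.5 and 88.8. Immediate early and stress genes had 1 of 19 called higher (Egr2) and a median of 0.38 (-0.29 over the rest of only 4 genes), with Jun at 80.5 and 105 CPM and the heat shock gene Hsp90aa1 at 857 and 674. Hypoxia and glycolysis genes had 1 of 24 called higher, Adm (23 and 59 counts), with a median of 0.18. Epidermis genes had 1 of 10, Grhl3 (10 and 33 counts), with a median of 0.21. The 19 clustered protocadherin genes had no call and a median of 0.08. Of 6 sex-linked genes 1 was called higher, Tsix (5 and 238 counts), which shares 28.6% of its words with other genes, most often with Xist.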
